A study of Mus musculus with 120 samples.

Results

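Resting hearts of 2 mouse strains that each carry a missense mutation in mitochondrial DNA (mtDNA) were compared: 6 hearts of ND5 mice against 6 hearts of CO1 mice, all from mice labelled non-exercised. These are 12 of 120 labelled samples, of which 96 had a column that could be tied to a mouse. ND5 mice carry C12352T, which changes the complex I subunit ND5 (S204F), and CO1 mice carry T6589C, which changes the catalytic subunit of complex IV (V421A). Both strains are on the C57BL/6Eij background with an intact Nnt gene, and no source used here gives the share of mtDNA copies that carry each mutation. The non-exercised mice were handled from 16 weeks of age over 8 weeks, while others of the same strains ran every second day. The runs lasted 45 min at 50% of capacity, and tissue was taken 6 days after the last session. Both sets of mice went through exercise tests before and after the 8 weeks. Exercised ND5 and CO1 hearts, resting ND6 hearts (G13997A in a complex I subunit, P25L) and resting soleus muscles of ND5 and CO1 mice served for values beside the main comparison. The fit that sets the spread of each gene held 48 hearts, which include resting and exercised hearts of ND6 mice and of ANT1 mice, which lack Slc25a4 (6 of each). The series asks how mitochondrial mutations alter endurance and its training. The control strain was not analysed here, so each difference is one between 2 mutants and cannot be assigned to either of them.

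Complex I takes electrons from NADH and complex IV passes electrons to oxygen, and mtDNA encodes core subunits of both. Adult ventricular muscle depends on this chain for nearly all of its ATP. Secreted and membrane proteins of heart cells fold in the endoplasmic reticulum (ER), where chaperones of the heat shock families and protein disulfide isomerases hold, fold and cross-link them. When folding falls behind, the transcription factors ATF6, XBP1 and ATF4 raise the genes of this machinery.

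The 2 mutated sites are shown because they define the strains. The letters are the reference sequence of mm10 as given by GENCODE M21, on the plus strand, at chrM:12332-12372 in mt-Nd5 and chrM:6569-6609 in mt-Co1, with the affected codon in capitals. In both the mutation falls on base 2 of the codon.
mt-Nd5: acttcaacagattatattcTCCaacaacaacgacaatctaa
mt-Co1: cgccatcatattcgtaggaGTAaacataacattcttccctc
The mutations replace a base inside an exon, so transcript levels do not check the strain labels. mt-Nd5 lay at 3308 (lowest), 13600.0 (median) and 19791 (highest) CPM (gene counts scaled to a common library size) in ND5 hearts, against 15682, 16617 and 16788 CPM in CO1 hearts. mt-Co1 lay at 21880, 89504 and 111671 CPM in ND5 hearts, against 109390, 119015 and 128162 CPM in CO1 hearts. The ranges overlap for both genes, and the ND5 hearts spread over a far wider range.

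The 12 hearts were not alike in the tissues their RNA came from. Library totals ran from 20542977 to 24659017 counts in ND5 and from 22746436 to 25411961 in CO1. ND5 heart B80 held 10.3 CPM of Myl2, the regulatory light chain of ventricular muscle, where the other 11 hearts held 289.6 to 5601 CPM. Its Myh6, the main cardiac myosin of the mouse, stood at 2829 CPM against 18583 to 27899 CPM in the others. Genes of other tissues were high in it: Ucp1, the uncoupling protein of brown fat, reached 202.2 CPM (at most 5.83 CPM elsewhere), Adipoq of fat cells 257.0 CPM (at most 17.7), Myh11 of smooth muscle 2284 CPM (at most 229.3) and the globin Hba-a1 24949.6 CPM (at most 5152). Hba-a1 shares near-identical sequence with Hba-a2, so the split between the 2 is uncertain. In B80, 4843 of 15723 genes tested lay above all 11 other hearts, 1020 of them by more than 2-fold, and 4422 lay below all others. Its median rank correlation with the others was 0.862, against 0.932 to 0.988 for the rest. The labels are at odds as well, since a soleus with the same mouse code is labelled exercised.

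Atrial markers also differed within the ND5 group. Myl7, the atrial light chain, stood at 1.42 CPM in ND5 heart B5 and 1.93 CPM in B70, but at 309.6 in B80, 348.3 in B21, 1513 in B10 and 1671 CPM in B81, against 0.966 to 31.7 CPM in CO1 hearts. B10 combined high Myl7 with 289.6 CPM of Myl2 and 1800.2 CPM of Bmp10, a growth factor of the right atrium. The 12 atrial marker genes summed to 585, 5020 and 21256 CPM (lowest, median, highest) in ND5 hearts and to 637, 733 and 1386 CPM in CO1 hearts, and all 12 were above 0 in both groups. In bulk tissue, fewer cells of a type and less RNA per cell cannot be told apart. Each result below is therefore given with B80, without it, and where it matters with Myl7 and Myl4 as a covariate and over the 2 ND5 hearts (B5 and B70) and 6 CO1 hearts whose Myl7 was under 50 CPM.

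**Figure D1:**
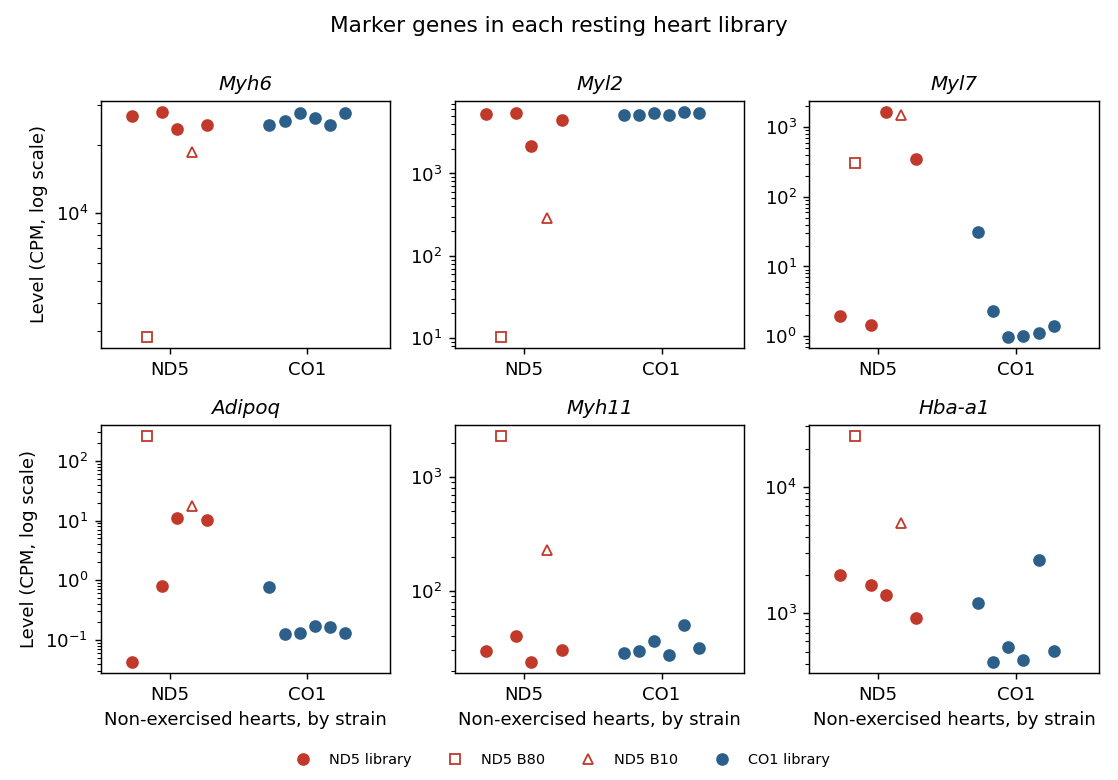
Level in CPM (log axis) of 6 marker genes in each non-exercised heart, ND5 left and CO1 right; open squares are B80 and open triangles B10. B80 lies far below all others for Myl2 (10.3 CPM) and Myh6 (2829 CPM) and far above them for Adipoq, Myh11 and Hba-a1, and 4 of 6 ND5 hearts exceed every CO1 heart in Myl7.

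With B80, 1458 of 15723 genes tested were higher in ND5 hearts (9.27%) and 302 were lower (1.92%) at an adjusted p under 0.05 in edgeR's quasi-likelihood test with Benjamini-Hochberg adjustment. Without B80, 4 of 15812 genes were higher (0.0253%) and 1 was lower (0.00632%). The 5 that remained were Grip2, Hyou1, Manf and Pdia3, which were higher, and Herc1, which was lower, and all 5 had been among the 1760 called with B80. At an unadjusted p under 0.05 the counts were 5193 genes with B80 and 2613 without it. Of the 1760 genes, 1756 kept the sign of their difference without B80 and 1354 still had an unadjusted p under 0.05. Their median absolute log2 fold change was 1.11 with B80 and 0.66 without it.

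The count without B80 depended on single libraries and on the tool. It was 0 without CO1 heart E69, 1 without B10 or without CO1 heart E55, 3 without B81, B21 or E64, 8 without E42 and 14 without E75. DESeq2 called 124 genes without B80. With only the 12 resting hearts in the fit, and so a spread estimated from them alone, edgeR called 0 genes with B80 (3724 at an unadjusted p under 0.05), and without B80 it called Hyou1 and Manf. With the atrial covariate, 7 genes passed with B80 (0.0445%) and 1, Grip2, without it (0.00632%). Over the hearts with Myl7 under 50 CPM none of 15323 passed (0%), with 711 at an unadjusted p under 0.05.

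**Figure D2:**
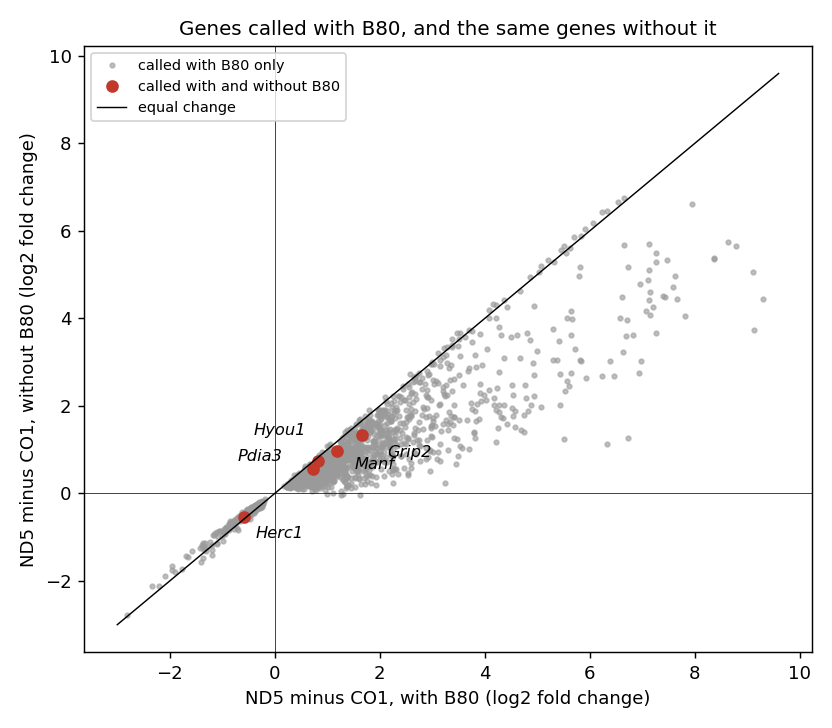
Log2 fold change, ND5 minus CO1, of the 1760 genes called with B80: the x axis gives the value with B80, the y axis the value of the same gene without it, and the line marks equal change. The 5 genes called in both are marked in red; over all points the median absolute value is 1.11 on the x axis and 0.66 on the y axis.

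Among the genes that remained, 3 of the 4 that rose encode proteins of the ER lumen. Manf, a small protein that the stressed ER makes and secretes, stood at 27.1, 34.5 and 61.4 CPM (lowest, median, highest) in ND5 hearts, against 13.7, 16.5 and 20.4 CPM in CO1 hearts. All 6 ND5 hearts lay above all 6 CO1 hearts, and the highest value was that of B80. The log2 fold change was 1.18 ± 0.20 (SE) with B80 (edgeR adjusted p = 0.00222) and 0.97 ± 0.19 without it (adjusted p = 0.0288). Hyou1, a large chaperone related to HSP70 that serves the ER chaperone BiP, stood at 45.9, 50.1 and 63.8 CPM in ND5 hearts, against 24.7, 29.2 and 35.5 CPM in CO1 hearts. Again the groups did not overlap, and the 6 ND5 values were close to each other. The log2 fold change was 0.83 ± 0.14 with B80 (adjusted p = 0.00222) and 0.75 ± 0.14 without it (adjusted p = 0.0220). Pdia3, a disulfide isomerase that works with calnexin and calreticulin on glycoproteins, stood at 139.5, 168.1 and 275.5 CPM in ND5 hearts, against 97.0, 114.8 and 124.7 CPM in CO1 hearts. No ND5 heart fell into the CO1 range. Its log2 fold change was 0.73 ± 0.13 with B80 (adjusted p = 0.00325) and 0.57 ± 0.11 without it (adjusted p = 0.0312). In mm10 Manf lies at chr9:106838312-106891979 on the minus strand, Hyou1 at chr9:44379490-44392369 and Pdia3 at chr2:121413775-121438687, both on the plus strand.

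Grip2, a scaffold protein with PDZ domains first known from glutamate receptor synapses, showed the largest difference of the 5. It stood at 13.04, 18.3 and 41.9 CPM in ND5 hearts, against 5.06, 6.78 and 10.03 CPM in CO1 hearts. The groups did not overlap, and B80 again held the highest value. The log2 fold change was 1.65 ± 0.24 with B80 (edgeR adjusted p = 0.000438), 1.34 ± 0.23 without it (adjusted p = 0.00795) and 1.40 ± 0.24 without it and with the atrial covariate (adjusted p = 0.00789). Herc1, a very large HECT-type ubiquitin ligase, was the gene that fell. It stood at 36.4, 45.0 and 56.1 CPM in ND5 hearts, against 50.6, 69.2 and 90.2 CPM in CO1 hearts. The groups overlap, since ND5 heart B70 lay above CO1 heart E75. The log2 fold change was -0.58 ± 0.09 with B80 (adjusted p = 0.00142) and -0.53 ± 0.10 without it (adjusted p = 0.0130). Grip2 lies at chr6:91761509-91827250 on the minus strand and Herc1 at chr9:66350450-66508775 on the plus strand.

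All 5 kept their sign in every alternative run, with and without B80. Over B5 and B70 alone against the CO1 hearts, the log2 fold change was 1.34 for Grip2, 1.057 for Manf, 0.79 for Hyou1, 0.50 for Pdia3 and -0.43 for Herc1, none with an adjusted p under 0.05 (lowest 0.286, Grip2). Starting from all 12 hearts, all 5 passed whichever single heart was left out, B80 included. Without B80, Grip2 passed in 10 of 11 such fits, Hyou1 and Herc1 in 7, Manf in 5 and Pdia3 in 4. The strand of the RNA is not stated to have been kept, so reads of an overlapping gene on the other strand cannot be told apart.

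**Figure D3:**
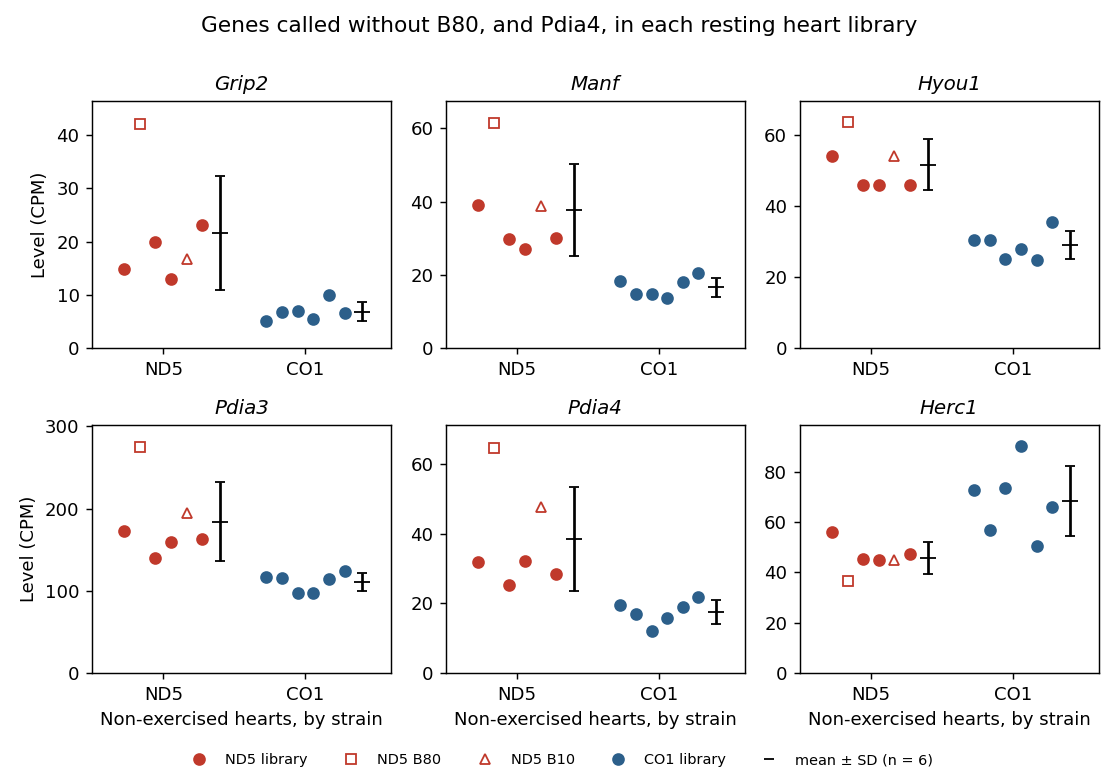
Level in CPM (linear axis from 0) of the 5 genes called without B80 and of Pdia4 in each non-exercised heart, ND5 left and CO1 right; the bars give mean ± SD (n = 6 each), open squares are B80 and open triangles B10. Every ND5 heart lies above every CO1 heart in 5 of the panels, and in Herc1 the groups overlap.

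The ER list holds 16 genes of the folding machinery and its regulators, all of which were tested. With B80, 11 were higher in ND5 hearts and 1, Herpud1, was lower, against 9.27% and 1.92% of all genes. Without B80, 3 were higher (Hyou1, Manf and Pdia3), against 0.0253% of all genes. The median log2 fold change of the list was 0.57 with B80 and 0.42 without it, where that of all genes tested was 0.04 and 0.01. It stayed at 0.40 with the atrial covariate and at 0.41 over B5 and B70, where that of all genes was 0.00 and -0.01.

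The ranges of the groups separated for much of the list. In 9 of 16 genes all 6 ND5 hearts lay above all 6 CO1 hearts, against 0.89% of genes (1.16% lay below), and the count was 9 without B80 as well, against 1.11% (1.26% below). These were the isomerases Pdia3, Pdia4 and Pdia6, the chaperones Hsp90b1, Calr, Hyou1 and Sdf2l1, the secreted Manf, and Xbp1, a transcription factor of the unfolded protein response. ND5 hearts B5 and B70, whose Myl7 and Adipoq stood at 1.93 CPM or less, lay above all CO1 hearts in 11 of 16, against 3.96% of all genes (4.49% lay below). In B5 and B70, summed endothelial markers (1068 and 1040 CPM) also lay above the CO1 range of 730 to 967 CPM. So did their summed neutrophil markers, while their fibroblast and smooth muscle sums lay inside the CO1 ranges. The part of these cell types in the ER values was not tested. The ER list was drawn up with earlier results of these data known, so its counts are a description.

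Single members show the size of these shifts, and those outside the rule for named genes were chosen after their values were seen. Pdia4, a disulfide isomerase, stood at 25.4, 32.1 and 64.5 CPM in ND5 hearts, against 12.2, 17.8 and 21.9 CPM in CO1 hearts. Its groups did not overlap, and its log2 fold change was 1.13 ± 0.22 with B80 (edgeR adjusted p = 0.00923) and 0.90 without it (adjusted p = 0.125). Sdf2l1, part of a BiP complex, lay at 3.93 to 6.65 CPM in ND5 hearts and at 1.48 to 3.38 CPM in CO1 hearts (log2 fold change 1.03 with B80, adjusted p = 0.0128; 0.92 without it, adjusted p = 0.160). Xbp1 lay at 52.9 to 95.6 CPM in ND5 hearts and 35.5 to 46.98 CPM in CO1 hearts (0.67, adjusted p = 0.0118; 0.52 without B80, adjusted p = 0.158). Smaller separated shifts were seen for Hsp90b1, the ER form of HSP90, at 330.8 to 402.0 CPM in ND5 hearts and 268.4 to 314.1 CPM in CO1 hearts, and for the calcium-binding chaperone Calr, at 216.3 to 279.3 CPM in ND5 hearts and 159.1 to 209.3 CPM in CO1 hearts.

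Not every ER gene followed. Hspa5, which encodes BiP, the main ER chaperone, lay at 469.4, 543.6 and 804.9 CPM in ND5 hearts, against 457.1, 487.3 and 518.8 CPM in CO1 hearts, and the groups overlap. Its log2 fold change was 0.25 ± 0.16 with B80 (edgeR adjusted p = 0.275) and 0.28 without it. The chaperone Canx and the cochaperones Dnajb9 and Dnajb11 did not pass with B80 either (log2 fold change 0.01, -0.03 and 0.20). Herpud1, which helps to remove misfolded ER proteins, was lower in ND5 with B80: it lay at 81.4, 216.4 and 283.8 CPM in ND5 hearts, against 195.4, 370.1 and 581.3 CPM in CO1 hearts. The groups overlap through CO1 heart E75, which had the lowest CO1 value. The log2 fold change was -0.93 ± 0.28 with B80 (adjusted p = 0.0300) and -0.78 without it (adjusted p = 0.192).

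**Figure D4:**
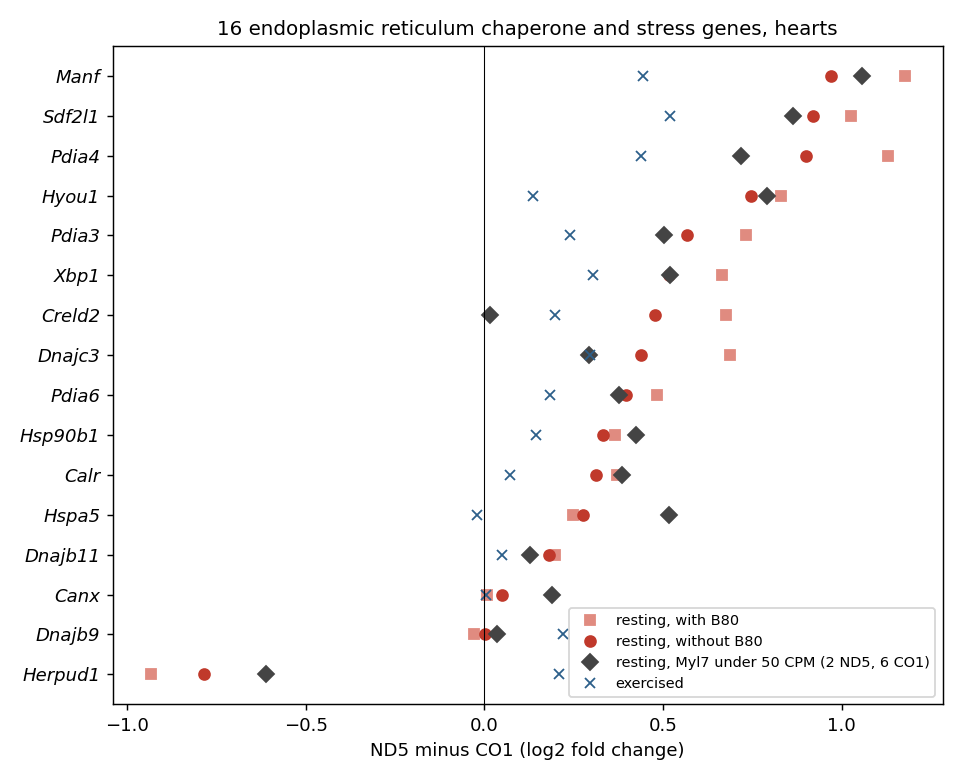
Log2 fold change, ND5 minus CO1, of the 16 ER genes in hearts: at rest with B80, at rest without it, at rest over the hearts with Myl7 under 50 CPM (2 ND5, 6 CO1), and in exercised mice. Manf, Sdf2l1, Pdia4 and Hyou1 lie highest at rest in all 3 sets, Herpud1 lies below 0 at rest, and the exercised value lies below the resting value without B80 for every gene except Dnajb9 and Herpud1.

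Many ER chaperone promoters carry the ER stress response element, CCAAT, 9 bases of any kind, then CCACG, which NF-Y and ATF6 are known to bind together. The element was searched for on both strands of the RefSeq promoters of GRCm38.p6, from 250 bases before to 50 after each gene's start. Its first part is a CCAAT box, which was also counted alone. The whole element was found in 39 of 32851 promoters (0.119%) and in 7 of the 14 ER genes that have a promoter in the table. The 8 sites of these 7 genes are printed with the 2 fixed parts in capitals and 8 bases on either side, on the strand that reads CCAAT first. They are shown so that the sites of genes that passed and did not pass with B80 can be read side by side, and the search itself fixed the letters in capitals.
Hspa5: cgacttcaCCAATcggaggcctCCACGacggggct
Hsp90b1 first: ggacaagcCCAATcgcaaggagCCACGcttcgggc
Hsp90b1 second: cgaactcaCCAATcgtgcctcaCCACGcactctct
Calr: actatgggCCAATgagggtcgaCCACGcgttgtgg
Canx: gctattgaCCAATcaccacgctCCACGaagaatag
Pdia6: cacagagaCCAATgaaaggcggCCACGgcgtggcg
Dnajc3: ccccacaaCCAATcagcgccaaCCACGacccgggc
Creld2: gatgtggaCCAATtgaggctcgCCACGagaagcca
They lie at chr2:34772017-34772051 (plus strand) for Hspa5, chr10:86705630-86705664 (minus) and chr10:86705525-86705559 (plus) for Hsp90b1, and chr8:84847067-84847101 (plus) for Calr. The others lie at chr11:50325792-50325826 (minus) for Canx, chr12:17266483-17266517 (plus) for Pdia6, chr14:118937819-118937853 (plus) for Dnajc3 and chr15:88819512-88819546 (minus) for Creld2. The second Hsp90b1 site and those of Calr and Creld2 read against the direction of their gene. Of the 7 genes, Hsp90b1, Calr, Pdia6, Dnajc3 and Creld2 rose with B80, and Hspa5 and Canx did not pass. Over the ER list 11 of 16 rose with B80, against 9.27% of all genes. Without B80 none of the 7 passed.

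The element was not found in the windows of Pdia3, Pdia4, Sdf2l1, Xbp1, Dnajb9, Dnajb11 and Herpud1. Of these genes, Pdia3, Pdia4, Sdf2l1 and Xbp1 also rose with B80, Dnajb9 and Dnajb11 did not pass, and Herpud1 fell. Hyou1 and Manf had no promoter entry. The promoter of Pdia3 is printed because the gene rose with and without B80; it lies at chr2:121413652-121413951 on the plus strand, with 2 CCAAT boxes in capitals.
Pdia3: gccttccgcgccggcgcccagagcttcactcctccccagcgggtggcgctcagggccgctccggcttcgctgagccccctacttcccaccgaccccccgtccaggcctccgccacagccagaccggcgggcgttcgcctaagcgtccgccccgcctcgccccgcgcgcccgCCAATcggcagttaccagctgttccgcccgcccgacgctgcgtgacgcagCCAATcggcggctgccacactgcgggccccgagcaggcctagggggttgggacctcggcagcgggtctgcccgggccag
A CCAAT box on either strand occurs in 12289 promoters (37.4%).

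Genes that fell with B80 and have the smallest p form a short set beside Herc1. Herc2, a ubiquitin ligase of the same type, stood at 47.6, 52.8 and 57.5 CPM in ND5 hearts, against 52.2, 75.03 and 87.6 CPM in CO1 hearts. It overlapped through E75 alone, with a log2 fold change of -0.47 ± 0.10 (edgeR adjusted p = 0.0118). Arih2, another ubiquitin ligase, lay at 25.1 to 40.8 CPM in ND5 hearts and 42.2 to 50.2 CPM in CO1 hearts, with no overlap (log2 fold change -0.41 ± 0.09, adjusted p = 0.0118). Ddx46, a helicase of the spliceosome, lay at 39.6 to 46.7 CPM in ND5 hearts and 47.5 to 57.8 CPM in CO1 hearts, also without overlap (-0.27 ± 0.06, adjusted p = 0.0118). Snrnp200, the helicase that unwinds spliceosomal RNA, Cnot1, the scaffold of the mRNA deadenylase complex, Vps13d, a lipid transfer protein needed for mitochondrial shape, and the repressor Bach1 fell by 0.33, 0.36, 0.69 and 0.67 on the log2 scale (adjusted p from 0.0118 to 0.0119). Without B80 these 7 genes had log2 fold changes between -0.59 and -0.25 and adjusted p between 0.127 and 0.160. Among genes that rose with B80 by the same rule, the cadherin Fat1 and the ER acetyl-CoA carrier Slc33a1 had log2 fold changes of 1.32 and 0.53 (adjusted p = 0.00661 and 0.00789), and 0.82 and 0.43 without B80 (adjusted p = 0.125 and 0.1099). The transcription factor Osr1 had 2.88 with B80 (adjusted p = 0.00674) and 1.74 without it (adjusted p = 0.160), and its level in B80 was 43.5 CPM, against 1.99 to 10.9 CPM in the other ND5 hearts.

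None of the 13 mtDNA-encoded mRNAs, 36 nuclear complex I subunits or 14 nuclear complex IV subunits passed, with or without B80, against 9.27% higher and 1.92% lower over all genes with it. All 13 and all 36 had negative log2 fold changes with B80, as did 7102 of the 15723 genes tested. The medians of the 2 lists were -0.46 and -0.45, and the complex IV list had -0.42. Without B80 the medians were -0.29, -0.30 and -0.27. With the atrial covariate they were 0.12, -0.02 and -0.03, and over B5 and B70 they were -0.01, -0.05 and -0.04, where 28 of the 36 complex I genes were still negative. All 6 ND5 hearts lay below all 6 CO1 hearts in 0 of 13 mtDNA-encoded mRNAs, 0 of 36 complex I genes and 1 of 14 complex IV genes, against 1.16% of all genes. The count was 1 of 9 for complex III, 1 of 15 for the ATP synthase, 1 of 13 for complex I assembly and 1 of 18 for complex IV assembly. Ventricular markers moved with the shift, summing to 2877 CPM in B80 and 19167 CPM in B10 against 33878 to 37852 CPM in CO1 hearts, and their part in it was not tested.

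Transcripts from mtDNA made up 20.1% ± 7.399 of counts in ND5 hearts and 25.9% ± 0.549 in CO1 hearts (SD, n = 6 each, exact two-sided permutation p = 0.0519, adjusted p = 0.103 over 23 library measures). B80 (8.13%) and B10 (14.3%) were lowest, followed by B81 (21.3%). B70 (25.5%) and B21 (26.5%) lay inside the CO1 range of 25.4% to 26.7%, and B5 (25.1%) lay just below it. Without B80 the ND5 share was 22.5% ± 5.02 (n = 5, exact permutation p = 0.0541, adjusted p = 0.107). Slc25a4, the adenine nucleotide carrier of heart mitochondria, stood at 471, 3030 and 3777 CPM in ND5 hearts and at 3367, 3667 and 3883 CPM in CO1 hearts (log2 fold change -0.49, edgeR adjusted p = 0.190). The mitochondrial ribosome list had 2 of 76 genes lower with B80, Mrps10 and Mrps30, near the 1.92% of all genes, and none without it, with medians of -0.35 and -0.24. In 5 of the 76 all 6 ND5 hearts lay below all 6 CO1 hearts, against 1.16% of all genes. The list's median was -0.02 with the atrial covariate and -0.06 over B5 and B70. Mrps10 lay at 10.1 to 15.8 CPM in ND5 hearts and 16.8 to 20.2 CPM in CO1 hearts without overlap (-0.45, adjusted p = 0.0264 with B80; -0.42, adjusted p = 0.189 without it).

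**Figure D5:**
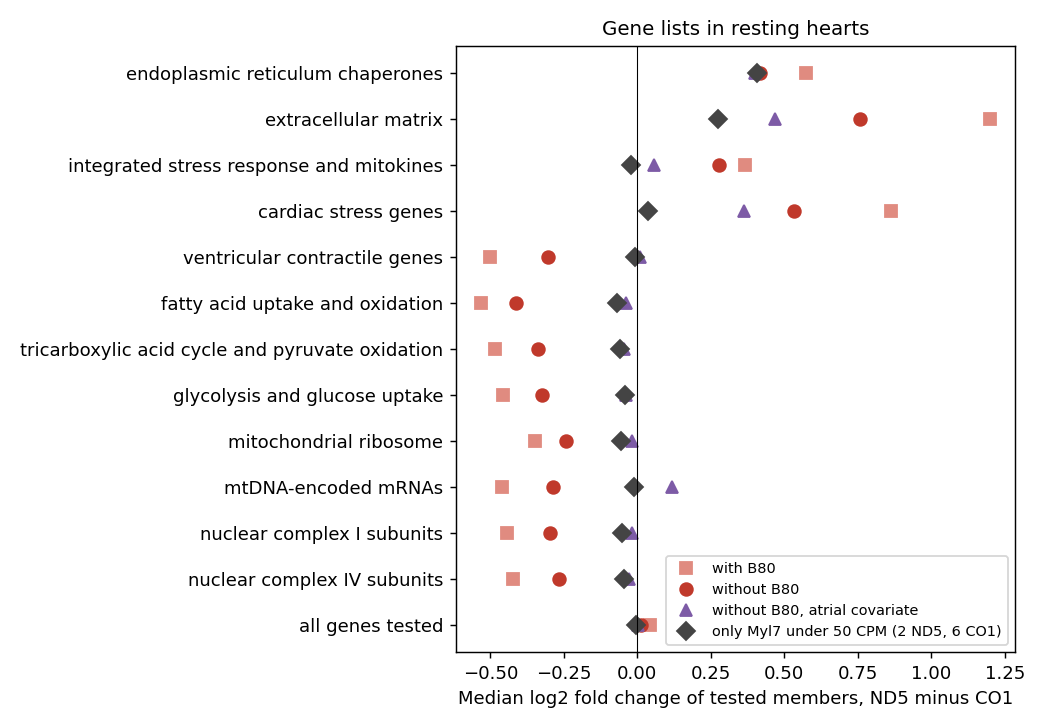
Median log2 fold change, ND5 minus CO1, of the tested members of 12 gene lists and of all genes tested, at rest: with B80, without it, without it and with the atrial covariate, and over the hearts with Myl7 under 50 CPM (2 ND5, 6 CO1). The ER chaperone median stays between 0.40 and 0.57 in all 4 sets, while the medians of the mitochondrial and contractile lists move to within 0.12 of 0 in the last 2.

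Among genes of fuel use, few passed with B80 and none without it. Pdk4, the kinase that switches off pyruvate oxidation, was the 1 of 22 genes of pyruvate oxidation and the citric acid cycle that fell with B80, against 1.92% of all genes. It lay at 178.0, 228.3 and 590.0 CPM in ND5 hearts, against 310.7, 1439.6 and 2183 CPM in CO1 hearts. CO1 heart E75 held the 310.7 CPM, below 2 ND5 hearts, and the other 5 CO1 hearts lay above every ND5 heart. The log2 fold change was -2.21 ± 0.72 with B80 (edgeR adjusted p = 0.0406) and -2.11 without it (adjusted p = 0.196). Ppargc1a, the coactivator of mitochondrial biogenesis, lay at 18.4, 102.0 and 467.1 CPM in ND5 hearts, against 76.6, 513.3 and 612.0 CPM in CO1 hearts. Again E75 was the low CO1 heart, and B70 was the high ND5 heart. Its log2 fold change was -1.59 ± 0.61 with B80 (adjusted p = 0.0730) and -1.37 without it (adjusted p = 0.261). With B80 kept, it passed when E75 was left out (-1.82, adjusted p = 0.0467) or B70 was (-2.34, adjusted p = 0.0114). Without B80 it did not pass when E75 was left out as well (-1.59, adjusted p = 0.188).

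Glycolysis and mitochondrial biogenesis each had a single lowered member with B80, against 1.92% of all genes, and none without it. Pfkfb2, the heart enzyme that sets fructose 2,6-bisphosphate and thereby glycolysis, was the 1 of 19 glycolysis genes that fell, with 9.78, 60.6 and 98.2 CPM in ND5 hearts against 54.1, 123.8 and 151.7 CPM in CO1 hearts. E75 held the lowest CO1 value, and the log2 fold change was -1.10 ± 0.32 (edgeR adjusted p = 0.0253), and -0.89 without B80 (adjusted p = 0.186). Tfb2m, which starts mtDNA transcription, was the 1 of 21 biogenesis genes that fell (-0.47, adjusted p = 0.0467), and it had -0.36 without B80 (adjusted p = 0.255). Of the 12 fits that each left out 1 of the 12 hearts, B80 included, Tfb2m passed in 5. Among 27 genes of fatty acid use none passed, and the carrier Ucp3 had -1.51 with B80 (adjusted p = 0.0773) and -1.38 without it (adjusted p = 0.271). E75 had the highest Ucp3 of the CO1 hearts, 82.98 CPM. Medians of these lists without B80 lay between -0.41 for fatty acid use and -0.16 for biogenesis, and over B5 and B70 the fatty acid median was -0.07.

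The integrated stress response, through which failing mitochondria raise ATF4 and amino acid synthesis, showed 8 of 24 genes higher with B80, against 9.27% of all genes, and none without it, against 0.0253%. Asns, which makes asparagine, stood at 1.14, 3.70 and 20.5 CPM in ND5 hearts and 0.801, 1.42 and 2.10 CPM in CO1 hearts, with B80 highest and B5 and B70 inside the CO1 range. Its log2 fold change was 2.03 with B80 (edgeR adjusted p = 0.0120), 1.057 without it (adjusted p = 0.208) and 0.07 over B5 and B70. Phgdh, the first enzyme of serine synthesis, had 2.17, 1.25 and -0.09 in the same 3 sets. Atf4 itself had a log2 fold change of 0.00 with B80, and the secreted Gdf15 had -0.71 (adjusted p = 0.515). The list median was 0.37 with B80, 0.28 without it and -0.02 over B5 and B70.

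Matrix genes were the list with the most calls while B80 was in the comparison, 22 of 26 higher, against 9.27% of all genes, and none passed without it, against 0.0253%. Col1a1, a chain of type I collagen, stood at 24.4, 41.5 and 197.3 CPM in ND5 hearts and 11.3, 18.4 and 33.7 CPM in CO1 hearts, and the groups overlap. Its log2 fold change was 1.79 ± 0.35 with B80 (edgeR adjusted p = 0.00962), 1.04 without it (adjusted p = 0.160) and 0.74 over B5 and B70. Col6a3, of the pericellular collagen VI, lay at 21.5 to 89.5 CPM in ND5 hearts and 13.1 to 20.2 CPM in CO1 hearts, the 1 matrix gene without overlap (1.29 with B80, adjusted p = 0.0113; 0.90 without it, adjusted p = 0.160). The median of the list was 1.198 with B80, 0.76 without it, 0.47 with the atrial covariate and 0.28 over B5 and B70. Fibroblast markers moved with it: the 8 of them summed to 1276, 1998 and 4349 CPM in ND5 hearts and 1203, 1271 and 1651 CPM in CO1 hearts, and their part in the matrix result was not tested.

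Of the genes of cardiac load, 6 of 16 were higher with B80, against 9.27% of all genes, and none passed without it, against 0.0253%. Nppa, the atrial natriuretic peptide, stood at 17.04, 1886 and 9616 CPM in ND5 hearts and 57.6, 129.6 and 425.3 CPM in CO1 hearts. The values of B80, B10, B21 and B81, the 4 ND5 hearts with high Myl7, were 1319.8 CPM or more, above every CO1 heart. Its log2 fold change was 4.43 with B80 (edgeR adjusted p = 0.0745), 4.58 without it (adjusted p = 0.211) and -2.60 over B5 and B70. Nppb, the ventricular peptide of wall stress, lay at 18.6 to 197.4 CPM in ND5 hearts and 13.8 to 134.7 CPM in CO1 hearts with full overlap (0.45, adjusted p = 0.661). None of the 18 ventricular contractile genes passed with B80, and their median was -0.50 with B80, -0.30 without it and -0.01 over B5 and B70.

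Calls among the other marker lists came only with B80. Called members among those tested with it, all higher, were 7 of 8 for smooth muscle, 6 of 8 for white adipocytes, 4 of 8 for brown adipocytes, 6 of 8 for fibroblasts, 5 of 5 for cartilage, 3 of 4 for endocardium, 4 of 8 for epicardium and 4 of 12 for atrial muscle, against 9.27% of all genes, and without B80 none passed. Red cell, conduction, macrophage and neutrophil lists had 1 called member each with B80. Without B80 the median log2 fold changes were 4.93 for white adipocytes, 4.2 for atrial muscle, 2.31 for endocardium and 2.28 for cartilage. They were 1.79 for epicardium, 1.41 for smooth muscle, 0.84 for fibroblasts and 0.64 for brown adipocytes, where that of all genes was 0.01. Retn, Lep and Ucp1 lay at no more than 0.319 CPM in any CO1 heart, so their fold changes rest on few counts there. Summed neutrophil markers lay at 1.14, 1.85 and 10.7 CPM in ND5 hearts and 0.0422, 0.257 and 1.03 CPM in CO1 hearts, without overlap (exact permutation p = 0.00216, the smallest that the permutations give, adjusted p = 0.0498; without B80 p = 0.00433, adjusted p = 0.0498). Of the 6 markers 6 were above 0 in ND5 hearts and 5 in CO1 hearts. Summed red cell markers lay at 4308, 8442 and 116227 CPM in ND5 hearts and at 1921, 2511 and 11570 CPM in CO1 hearts. These ranges overlap, and E75 was the highest CO1 heart for both red cell and neutrophil markers. The part of blood in the neutrophil result was not tested. Summed conduction system markers averaged 67.5 ± 34.6 CPM in ND5 hearts and 35.3 ± 4.56 CPM in CO1 hearts (SD, n = 6 each, exact permutation p = 0.00433, adjusted p = 0.0498 with and without B80). The 2 groups overlapped through B70 (37.0 CPM) and CO1 heart E42 (42.2 CPM), and B10 was highest with 131.8 CPM. Atrial markers moved with these: the median log2 fold change of the conduction list was 1.91 without B80, 0.20 with the atrial covariate added and 0.24 over B5 and B70. Lung, liver and T cell markers summed to at most 1.10, 2.18 and 7.31 CPM in any of the 12 hearts.

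Several lists gave few or no calls with B80, and each had none without it. Clock genes (17 tested), immediate early genes (20), heat shock genes (13) and interferon-stimulated genes (22) had 0 called. Over all genes with B80, 9.27% were called higher and 1.92% lower. B5 and B70 lay below all 6 CO1 hearts in 4 of 17 clock genes and 5 of 20 immediate early genes, against 4.49% of all genes. They lay above in 0 of both lists, against 3.96%. On the log2 CPM scale the clock gene Dbp stood at 7.17 in E75 and at 4.30 to 5.74 in the other CO1 hearts. In ND5 heart B21 it stood at 6.95. Cholesterol synthesis had 3 of 20 higher, against 9.27% of all genes, among them Msmo1, an enzyme of the pathway (log2 fold change 0.79, edgeR adjusted p = 0.0174), which had 0.42 without B80 (adjusted p = 0.228).

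In exercised hearts of the same strains, 6 ND5 against 6 CO1, none of 15723 genes passed (0%), with 1841 at an unadjusted p under 0.05. Marker genes varied among these hearts as well. On the log2 CPM scale, exercised ND5 heart B11 held 7.84 of Ucp1, against 7.66 in B80, and 6.81 of Adipoq. Exercised ND5 heart B71 held 6.25 of Myl2 and 13.72 of Hba-a1. Exercised CO1 heart E50 held 9.05 of Myl7 and 4.37 of Ucp1. The part of such tissue in the exercised values was not tested. Grip2 averaged 10.8 ± 3.65 CPM in exercised ND5 hearts and 12.7 ± 3.53 CPM in exercised CO1 hearts (SD, n = 6 each), with a log2 fold change of -0.24 ± 0.24. At rest the averages were 21.6 ± 10.6 CPM in ND5 and 6.86 ± 1.75 CPM in CO1. Its strain difference at rest exceeded the one in exercised hearts by 1.89 ± 0.34 on the log2 scale with B80 (edgeR adjusted p = 0.0252). This was the only such call among 15723 genes (0.00636%). Without B80 the excess was 1.601 ± 0.31 (adjusted p = 0.103), and none of 15812 genes passed (0%), with 424 at an unadjusted p under 0.05.

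Of the 16 ER genes, 15 had positive log2 fold changes in exercised hearts, and none passed. The atrial marker list had a median of 2.34 there, and its part in these values was not tested. Manf averaged 26.3 ± 10.6 CPM in exercised ND5 hearts and 19.3 ± 4.67 CPM in exercised CO1 hearts, a log2 fold change of 0.44 ± 0.20 (edgeR adjusted p = 0.412). Hyou1 had 0.14 ± 0.14 and Pdia3 had 0.24 ± 0.13. For both the difference between the resting and the exercised value did not pass (0.64 and 0.36 without B80, adjusted p = 1). The list median was 0.20 in exercised hearts, where that of all genes was 0.04.

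Contrasts with resting ND6 hearts reuse the CO1 or ND5 libraries of the main comparison. Their values are therefore given only side by side, without B80. Against CO1, ND6 hearts had log2 fold changes of 0.78 for Grip2, 0.56 for Manf, 0.31 for Hyou1, 0.30 for Pdia3 and -0.42 for Herc1, and no gene passed (0%; 2531 at an unadjusted p under 0.05). ND5 minus ND6 gave 0.56, 0.41, 0.43, 0.26 and -0.11 for the same genes, again with no gene called (0%; 278 at an unadjusted p under 0.05). In resting soleus no gene of 13935 passed for ND5 minus CO1 (0%; 3080 at an unadjusted p under 0.05). There the same 5 genes had 0.51 (edgeR adjusted p = 0.219), 0.66 (0.0816), 0.26 (0.281), 0.54 (0.0634) and -0.29 (0.115), and the ER list had a median of 0.32, where that of all genes was 0.01.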

How the data were processed

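Heart and soleus RNA was enriched with oligo(dT), made into NEBNext Ultra II libraries and read in pairs, per the labels' protocols. The values that the authors deposited are expected counts of each gene, with decimals. RSEM 1.2.28, STAR 2.5.2b and mm10 are named in the submitters' processing notes. Libraries ran on 3 flowcell lanes, and no source used here gives the lane of a library. Mouse codes linked columns to samples, so the libraries of a group are separate mice by their codes. Another 12 heart and 12 soleus columns matched no title and were not used, and the control strain is not analysed here.

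Counts were rounded, filtered with filterByExpr by group and scaled by TMM. All 48 heart libraries, also of ND6 mice and of mice without Slc25a4, entered 1 fit of edgeR 4.0.16 (R 4.3.3, quasi-likelihood F test, Benjamini-Hochberg adjustment over all genes), and genes were called at an adjusted p under 0.05. The fit was repeated without B80. CPM are scaled to library size times TMM factor, over the 48 libraries. The test was checked on counts simulated without B80, from CO1 averages with the same spread for every gene and library. Such counts hold no mixed tissue, so the check does not cover hearts as unlike as these. Library measures were compared by exact permutation. Alternatives used DESeq2 1.42.0 or limma 3.58.1, other filters or scaling, a covariate of log2(Myl7 + Myl4 CPM + 1), and fewer libraries. Among replicate pairs 0 were identical.

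The comparison, the lists and the rule for named genes were chosen with earlier results of these data known. The rule takes mt-Nd5, mt-Nd6, mt-Co1, Slc25a4 and Nnt, up to 12 called genes per direction with the smallest p without B80 and 8 with it (average log2 CPM of at least 1), and from each list the 3 genes of smallest p without B80, leaving out predicted genes and pseudogenes. The text names fewer, and genes outside the rule were chosen after their values were seen.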

Additional observations from a re-analysis of the deposited data

Results flagged for a closer look

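In 24 of 170 groups of 6 hearts examined (14.1%), 1 heart lay far from the other 5 by Dixon's ratio, the gap to the nearest heart over the group's whole range. Chance sets apart about 1 in 20 groups when values are independent and normally distributed. Some genes here were chosen after their values were seen, and some also belong to the marker lists, so the 14.1% is a description. Single genes were taken on the log2 CPM scale and marker lists as summed CPM.

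B80 was the highest ND5 heart in 6 of them: Fat1 (ratio 0.636), brown adipocyte markers (0.679), white adipocyte markers (0.895), red cell markers (0.830), smooth muscle markers (0.906) and neutrophil markers (0.832). B10 was highest for the conduction system (0.627) and B21 for B cells and plasma cells (0.706).

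Among CO1 hearts, E42 was the highest for Myl7 (0.764), Adipoq (0.868), Comp (0.708), and the summed markers of atrial muscle (0.810), fibroblasts (0.734), endocardium (0.741) and thyroid (0.631). E75 was the lowest for Ppargc1a (0.889), Pfkfb2 (0.643), Atf4 (0.869) and endothelial markers (0.646), and the highest for T cell markers (0.859) and neutrophil markers (0.732). E53 was lowest for mt-Nd5 (0.806), E69 lowest for Postn (0.690) and E64 highest for lung markers (0.779).

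Grip2 differed between strains by more in resting than in exercised hearts, by 1.89 on the log2 scale with B80 (edgeR adjusted p = 0.0252). Without B80, the resting heart with the highest Grip2, this excess did not pass.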

How the results depend on the processing

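No paired analysis was possible because ND5 and CO1 hearts come from different mice and share no replicate codes. The number of genes called with B80 was 1760. It was 1688 with DESeq2's size factors, 2433 with DESeq2 and 1330 above an average log2 CPM of 1, and 1032 with no filter, 331 with limma voom and library weights, 7 with the atrial covariate, 0 over only the 12 resting hearts (3724 at an unadjusted p under 0.05) and 0 over hearts with Myl7 under 50 CPM (711 at an unadjusted p under 0.05). Leaving out single hearts gave 5 (without B80) to 3247 (without B5), with 3016 without B70, 726 without B10, 897 without E64, 719 without E55, 548 without E69 and 903 without E53. Without B80 the count of 5 became 5 with DESeq2's size factors, 4 with no filter, 124 with DESeq2, 179 with limma voom, 2 over only the resting hearts (Hyou1 and Manf), 1 with the covariate and 0 with Myl7 under 50 CPM, and 0 to 14 when single hearts were left out. Without both B80 and B10, a choice made after seeing the data, 1 gene passed (Grip2). The single call of the resting minus exercised difference became 0 without B80.

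Signs turned in these cases. Atf4 had -0.0166 with DESeq2's size factors, -0.0164 with DESeq2, -0.16 with limma voom, -0.0721 with Myl7 under 50 CPM and -0.0840 without B80 and B10. With the covariate and B80, mt-Nd5 had 0.0595, Gdf15 0.72, Nppa -1.70 and Myl2 0.0122, and without B80 mt-Nd5 had 0.23, mt-Nd6 0.16, Slc25a4 0.0182, Nnt 0.17, Gdf15 0.86, Nppa -1.61 and Myl2 0.26. With Myl7 under 50 CPM, mt-Nd5 had 0.0892, Slc25a4 0.0163, Nnt 0.21, Phgdh -0.0934, Nppa -2.60, Postn -0.13, Myl7 -1.91, Myl2 0.0298 and Acta2 -0.0485. Without B80 and B10, mt-Nd5 had 0.00075 and Myh11 -0.12. Summed brown and white adipocyte markers differed by -226.4 and -21.5 CPM without B80. Such sums follow their most abundant members. The median log2 fold changes of the same lists without B80 were positive, 0.64 for brown and 4.93 for white adipocytes. When single hearts were left out, Atf4 ran from -0.11 to 0.0693 with B80, and without it mt-Nd5 from -0.32 to 0.00075 and Myh11 from -0.12 to 1.26. The causes were not tested.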
